A study of Homo sapiens with 18 samples.

Results

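The tight junction was followed in the HK-2 line, immortalized human proximal tubular epithelium, through 9 genes: the claudins CLDN1, CLDN2, CLDN4 and CLDN7, the junction proteins OCLN, MARVELD2 and F11R, and the plaque proteins TJP1 and CGN. The genes were listed by name, and each was read from its brightest probe set among those annotated with exactly 1 gene symbol. Of the 9 genes, 8 had such a probe set and 7 reached a mean of 4 on the log2 scale in at least 1 group and were tested, among 10717 tested genes of 19775 with a named probe set. The groups were HK-2 cells exposed to CsA for 12, 24 or 48 h, and each had a control group given vehicle for the same time, so that 6 groups of 3 biological replicates made up 18 Affymetrix arrays. CsA is in common use short for cyclosporin A, an immunosuppressant with known effects on the kidney, and the labels give no dose for it. All cells were of the same line and came from the same laboratory, were plated a day before treatment and were near confluence when treatment began. Nothing in the labels says what separated the biological replicates, so the p-values below measure the spread between these samples. Where replicate number is a block, they measure the spread left after differences between the numbers are removed.

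Tight junctions seal the space between neighbouring epithelial cells. Claudins span the membrane and set which ions pass: some tighten the seal, while CLDN2 forms a channel for small cations and water and is typical of the leaky proximal tubule. Occludin and tricellulin, the products of OCLN and MARVELD2, are tetraspan proteins of the MARVEL family, and tricellulin sits where the corners of neighbouring cells meet. ZO-1, the product of TJP1, ties the membrane proteins to actin, and cingulin, the product of CGN, binds this plaque.

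The genes lie on several chromosomes, and OCLN and MARVELD2 are neighbours. In RefSeq's annotation of GRCh38.p14, MARVELD2 occupies chr5:69415116-69444330 and OCLN chr5:69492547-69558104, with 48216 bases between them. CLDN2 lies at chrX:106900164-106930861, CLDN1 at chr3:190305707-190322446, CLDN4 at chr7:73830996-73832690 and CLDN7 at chr17:7259903-7263213. TJP1 spans chr15:29699367-29969049, CGN chr1:151510170-151538692 and F11R chr1:160995211-161021152. The 250 bases before the RefSeq starts are shown for CLDN2, which was lower at 48 h, and for the neighbours OCLN and MARVELD2, which were higher at 48 h. The windows are on the plus strand of GRCh38.p14, at chrX:106899914-106900163 and chrX:106918110-106918359 for both CLDN2 starts, at chr5:69492297-69492546 for the upstream OCLN start and at chr5:69414866-69415115 for MARVELD2. Capitals mark matches, on either strand, to an E-box (CAGGTG), an AP-1 motif (TGANTCA) or a GC box (GGGCGG), none of which overlap there.
CLDN2 start 1: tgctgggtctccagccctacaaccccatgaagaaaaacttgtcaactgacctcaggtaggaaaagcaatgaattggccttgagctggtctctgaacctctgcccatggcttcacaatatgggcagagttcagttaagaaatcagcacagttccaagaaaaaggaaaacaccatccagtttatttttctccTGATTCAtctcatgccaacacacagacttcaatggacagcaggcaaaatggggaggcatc
CLDN2 start 2: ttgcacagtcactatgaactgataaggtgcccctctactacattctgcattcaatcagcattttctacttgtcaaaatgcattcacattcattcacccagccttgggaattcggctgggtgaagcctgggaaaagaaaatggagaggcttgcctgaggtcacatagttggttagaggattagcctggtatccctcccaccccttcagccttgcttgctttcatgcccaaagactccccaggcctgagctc
OCLN: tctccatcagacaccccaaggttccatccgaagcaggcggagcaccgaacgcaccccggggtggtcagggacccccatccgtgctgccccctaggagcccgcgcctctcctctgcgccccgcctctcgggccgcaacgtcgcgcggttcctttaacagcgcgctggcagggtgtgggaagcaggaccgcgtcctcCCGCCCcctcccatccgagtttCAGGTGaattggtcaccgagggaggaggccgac
MARVELD2: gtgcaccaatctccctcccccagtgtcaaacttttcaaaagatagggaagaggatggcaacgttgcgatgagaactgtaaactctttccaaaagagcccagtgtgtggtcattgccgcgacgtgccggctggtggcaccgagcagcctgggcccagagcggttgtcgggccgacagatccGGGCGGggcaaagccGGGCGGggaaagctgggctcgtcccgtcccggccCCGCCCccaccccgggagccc

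The first CLDN2 window held an AP-1 match 60 bases before the start and the second held no match to these letters. The OCLN window held an E-box match 33 bases and a GC box 55 bases before the start, and the MARVELD2 window held GC boxes 70, 55 and 21 bases before it. Of the 35116 RefSeq windows of the same length, 17.5% held the E-box, 6.57% the AP-1 motif and 42.6% the GC box. The motifs were chosen after these windows had been looked at, so the matches are a description. Of the 9 genes, 8 had an entry in the promoter table.

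The values are GCRMA values read as log2, on which a difference of 1 is a 2-fold difference in signal. The median of an array was 2.858 to 2.924, and 38.24% to 39.13% of its probe sets had a value of 4 or more, the level below which a value is called low here. Replicate 3 stood apart: the SD of the difference between arrays of a group over all genes was 0.632 to 0.796 between replicate 3 and either other replicate, and 0.225 to 0.494 between replicates 1 and 2. After the mean of its group had been subtracted for each gene, each of the 18 arrays correlated most, outside its own group, with one of its own replicate number. Results of a second fit, in which the number is a block, are therefore given where they change a call. The simple epithelium markers EPCAM, KRT8, KRT18, KRT19 and KRT7 were at 4 or more on all arrays, and CDH1 ranged from 3.05 to 9.23. Of 15 proximal tubule markers with a probe set, 3 reached 4 (PDZK1, GATM and SLC3A1), and the endocytic receptors LRP2 and CUBN, the water channel AQP1 and the phosphate transporter SLC34A1 stayed under 4 on all arrays. Of 9 fibroblast markers 5 reached 4 on some array, COL1A1 and LUM among them, and of 6 leukocyte markers with a probe set 0 did.

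The sealing and channel claudins were measured at very different spreads. CLDN1 (probe set 222549_at), a claudin that tightens the seal, lay between 14.31 and 14.94 on all 18 arrays, close to the highest value of any probe set, 15.98. CLDN2 (223509_at) had the widest range of the 8 genes with a probe set, from 3.45 to 10.43 with a median of 8.80. CLDN4 (201428_at), a claudin of the distal nephron, ranged from 6.86 to 8.62, and CLDN7 (202790_at), another claudin of the distal nephron, lay between 2.03 and 2.05 on 18 of 18 arrays and was not tested. Signals of different probe sets are not compared as amounts of RNA.

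Of the other junction genes, OCLN (227492_at) ranged from 8.35 to 10.61, MARVELD2 (235141_at) from 6.60 to 8.37 and TJP1 (202011_at) from 10.21 to 11.14. CGN (223233_s_at) ranged from 2.68 to 6.01 and was under 4 on 6 arrays, all of them replicate 3. F11R, which encodes the junctional adhesion molecule JAM-A, had no probe set named with 1 symbol and was not analysed here.

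**Figure D1:**
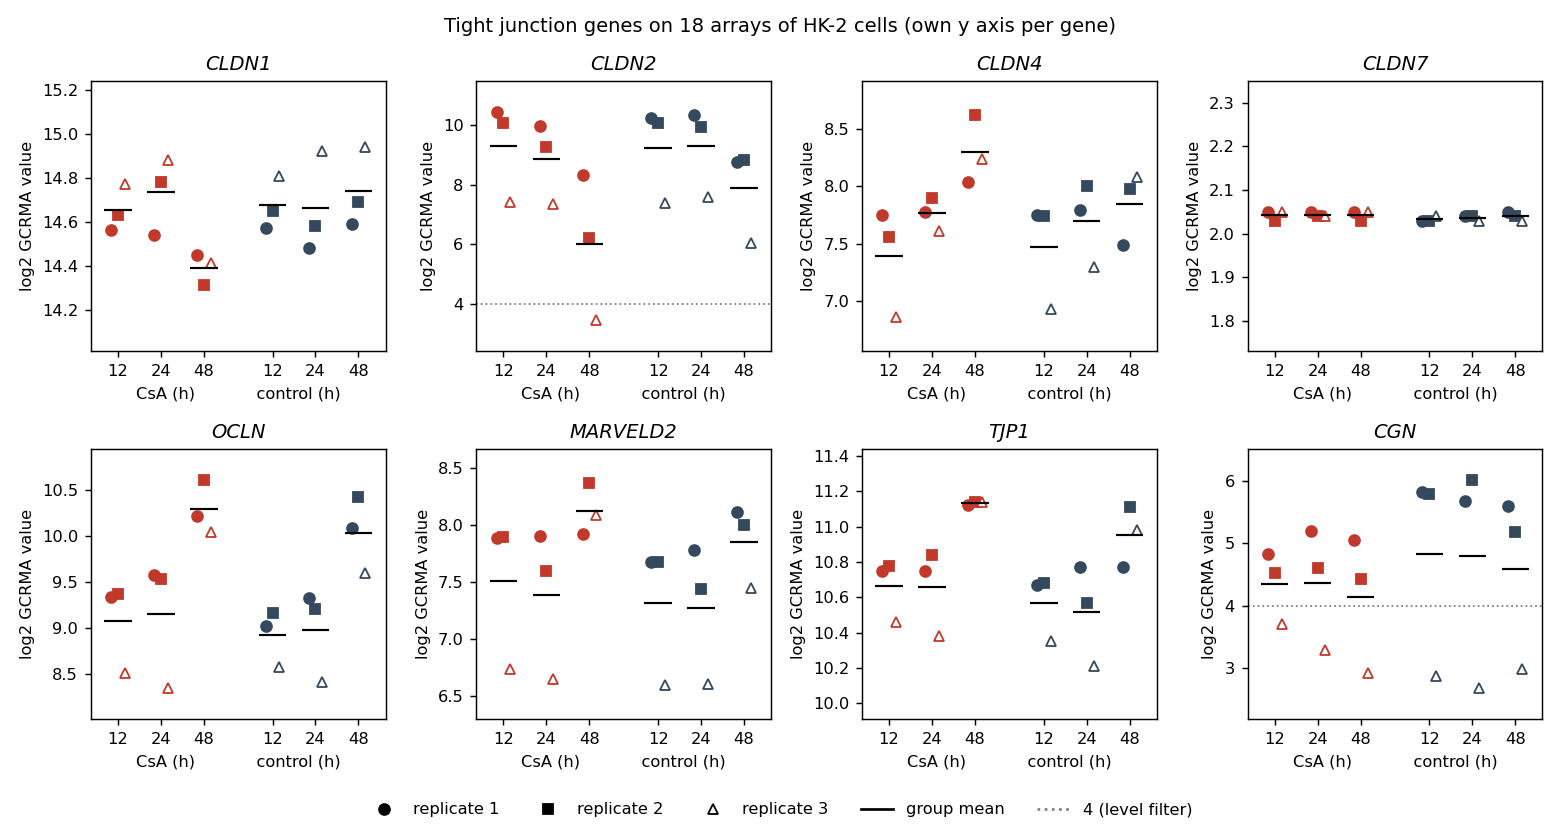
Log2 GCRMA value (y axis, scaled separately for each gene) of the 8 junction genes on 18 arrays, by treatment and time (x axis, CsA left of control); symbols show the replicate number, horizontal bars the mean of 3 arrays and the dotted line a value of 4. CLDN2 is lowest in the CsA cultures of 48 h, OCLN is highest at 48 h under both treatments, and open triangles (replicate 3) lie lowest for CLDN2, OCLN and CGN in all 6 groups.

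CsA was first compared with control at 12 and 24 h, where no junction gene passed the test. At 12 h CGN differed by -0.47 ± 1.00 (SE), and the other 6 lay between -0.09 for CLDN4 and 0.19 for MARVELD2. At 24 h CLDN2 differed by -0.43 ± 1.30 and CGN by -0.43 ± 1.00, and the other 5 lay between 0.07 for CLDN4 and 0.17 for OCLN. With limma over 10717 genes and Benjamini-Hochberg adjustment at a threshold of 0.05, 0 of 7 junction genes passed at either time, with or without the replicate block. Of all tested genes 0% passed at 12 h in both fits, and at 24 h 0% did, or 0.00933% with the block. At an unadjusted p under 0.05, 98 of all tested genes (259 with the block) were counted at 12 h and 406 (1009 with the block) at 24 h.

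The replicates of CGN differed in sign at both times. At 12 h it had 4.82, 4.52 and 3.71 in replicates 1, 2 and 3 with CsA, and 5.82, 5.79 and 2.87 in control. At 24 h the values were 5.19, 4.60 and 3.29 with CsA, and 5.67, 6.01 and 2.68 in control. Replicates 1 and 2 were lower with CsA at both times and replicate 3 was higher with CsA, and every replicate 3 value was under 4.

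At 48 h CLDN2 was the junction gene with the largest difference between CsA and control. Its values were 8.33, 6.19 and 3.45 in replicates 1, 2 and 3 with CsA, and 8.77, 8.84 and 6.04 in control. The groups overlapped, with replicate 3 lowest under both treatments, and CsA was lower in 3 of 3 replicates, by 0.45, 2.64 and 2.59 on the log2 scale in the order of their numbers. The means were 5.99 ± 2.45 with CsA and 7.88 ± 1.60 in control (SD, n = 3), so the CsA signal was 0.269 times the control signal. In bulk cultures fewer cells with a transcript and less transcript per cell cannot be told apart.

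Without the block this difference of -1.89 ± 1.30 (SE) did not pass (limma adjusted p = 0.543), and with the block CLDN2 fell (-1.89 ± 0.36, limma adjusted p = 0.0125). The lowest value, 3.45, was under 4, and with values below 4 raised to 4 the difference was -1.71. The blocked call was lost without replicate 3 (-1.54, limma adjusted p = 0.102), on the 6 arrays of 48 h alone (limma adjusted p = 0.0715) and, of 6 arrays left out in turn, without CsA replicate 2 (-1.63, limma adjusted p = 0.0781). Over these 6 fits the difference ranged from -2.55, without CsA replicate 1, to -1.50, without CsA replicate 3, or from 0.171 to 0.353 times the control signal.

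CLDN1 was slightly lower with CsA at 48 h. It had 14.45, 14.31 and 14.41 with CsA, and 14.59, 14.69 and 14.94 in control. The 3 CsA arrays all lay below the 3 control arrays, as in 6.77% of all tested genes. The difference was -0.35 ± 0.14 without the block (limma adjusted p = 0.227) and -0.35 ± 0.09 with it (limma adjusted p = 0.0334), a CsA signal 0.783 times that of control. A second CLDN1 probe set (218182_s_at) differed by -0.29. The blocked call held in 2 of 6 fits with 1 array left out, those without CsA replicate 1 (limma adjusted p = 0.00855) or control replicate 2 (0.0462), and it was lost in the other 4 (0.0779 to 0.135), without replicate 3 (0.187) and on the 6 arrays alone (0.129).

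The remaining junction genes did not pass at 48 h with or without the block. TJP1 had 11.12, 11.14 and 11.14 with CsA, and 10.77, 11.11 and 10.98 in control. Its 3 CsA arrays all lay above control, as in 8.25% of all tested genes, but the difference was 0.18 ± 0.16 (limma adjusted p = 0.67). A second TJP1 probe set (214168_s_at) differed by 0.43. CLDN4 had 8.04, 8.62 and 8.24 with CsA, and 7.49, 7.98 and 8.08 in control.

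CLDN4 was higher with CsA in 3 of 3 replicates with overlapping groups, and differed by 0.45 ± 0.28 (limma adjusted p = 0.488, or 0.214 in the blocked fit). OCLN differed by 0.25 ± 0.36, MARVELD2 by 0.27 ± 0.42 and CGN by -0.45 ± 1.00. The OCLN probe sets 209925_at and 231022_at differed by 0.58 and 0.19 at 48 h, by 0.41 each at 24 h, and by -0.01 and -0.23 at 12 h. In blocked fits with 1 array left out CLDN4 passed without control replicate 3 (0.73, limma adjusted p = 0.0469) and MARVELD2 without CsA replicate 1 (0.57, limma adjusted p = 0.0475).

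Counted together, 0 of 7 junction genes passed at 48 h without the block, where 0.439% of all tested genes did, and with the block 0 of 7 rose and 2 fell, where 10.8% of all tested genes changed, 4.8% up and 5.96% down. The median difference of the 7 was 0.18, against 0.001 over all tested genes. Without the block 1719 of all tested genes had an unadjusted p under 0.05. The test that asks whether the CsA difference varied between the times called 0 of 7 with or without the block, against 0.0373% and 0.028% of all tested genes. For CLDN2 the CsA difference at 48 h minus that at 12 h was -1.97 (F test over the times with the block, limma adjusted p = 0.346), and without CsA replicate 1 of 48 h that F test passed (limma adjusted p = 0.000573).

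**Figure D2:**
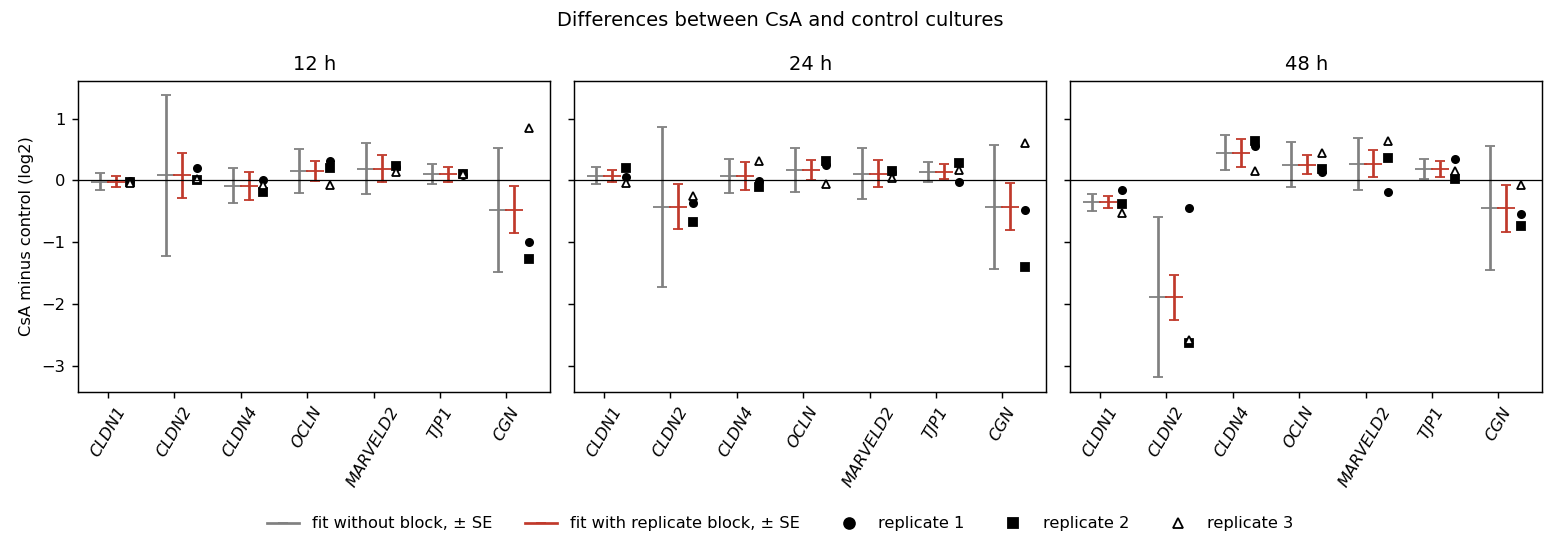
Difference between CsA and control (y axis, log2) for the 7 tested junction genes (x axis) at 12, 24 and 48 h; horizontal ticks with bars show the fitted difference ± SE without (grey) and with (red) the replicate block, and symbols the difference within each replicate number. CLDN2 at 48 h lies at -0.45 in replicate 1 and at -2.64 and -2.59 in replicates 2 and 3, and CGN changes sign between the replicates at 12 and 24 h.

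The second question was how the genes differed between the later and the earlier times within each treatment, and OCLN rose under both treatments. In CsA cultures OCLN had 10.22, 10.61 and 10.05 at 48 h, against 9.34, 9.37 and 8.51 at 12 h. In control cultures it had 10.09, 10.43 and 9.60 at 48 h, against 9.02, 9.17 and 8.58 at 12 h. All 48 h arrays lay above all 12 h arrays of the same treatment, as in 22.5% of all tested genes with CsA and 16.5% in control. OCLN rose by 1.22 ± 0.36 (SE) with CsA (limma adjusted p = 0.0182) and by 1.12 ± 0.36 in control (limma adjusted p = 0.0459), a signal 2.33 and 2.17 times that at 12 h.

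The OCLN call at 48 h against 12 h held in both treatments with the block, in all 6 blocked fits with 1 array left out, without replicate 3 and on the arrays compared alone (limma adjusted p at most 0.0292). Without the block it was lost in CsA cultures without the 12 h array of replicate 3 (0.0876) or the 48 h array of replicate 2 (0.0781), and in control cultures in 5 of 6 such fits (0.0649 to 0.165). The other OCLN probe sets that reached 4 differed in the same direction, 209925_at by 1.38 with CsA and 0.79 in control and 231022_at by 1.36 with CsA and 0.93 in control.

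TJP1, the scaffold, also rose in CsA cultures. TJP1 had 11.12, 11.14 and 11.14 at 48 h with CsA, against 10.75, 10.78 and 10.46 at 12 h. All 48 h arrays lay above all 12 h arrays, as in 22.5% of all tested genes. TJP1 rose by 0.47 ± 0.16 with CsA (limma adjusted p = 0.0391). In control it was higher by 0.39 ± 0.16 (limma adjusted p = 0.116), and it rose there with the block (limma adjusted p = 0.0301). The second TJP1 probe set (214168_s_at) differed by 0.65 with CsA and by 0.20 in control.

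Without the block the TJP1 call with CsA was lost in 5 of 6 fits with 1 array left out (0.0597 to 0.151). With the block it held in 6 of 6, but not without replicate 3 (0.0587) or on the 6 arrays alone (0.0651), and in control the blocked call held in 1 of 6.

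MARVELD2 had 7.92, 8.37 and 8.09 at 48 h with CsA, against 7.89, 7.90 and 6.74 at 12 h. All 48 h arrays lay above all 12 h arrays, as in 22.5% of all tested genes, although replicate 1 differed by only 0.04. The difference of 0.62 ± 0.42 (limma adjusted p = 0.288) passed with the block (0.62 ± 0.22, limma adjusted p = 0.03). It was 0.25 without replicate 3 (limma adjusted p = 0.317), and the blocked call was lost in 4 of 6 fits with 1 array left out, over which the difference ranged from 0.30 to 0.92. In control MARVELD2 had 8.12, 8.0 and 7.45 at 48 h, against 7.68, 7.68 and 6.60 at 12 h, a difference of 0.54 ± 0.42 that did not pass in either fit.

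Among the claudins, CLDN4 was higher and CLDN2 lower at 48 h. CLDN4 had 8.04, 8.62 and 8.24 at 48 h with CsA, against 7.75, 7.56 and 6.86 at 12 h. All 48 h arrays lay above all 12 h arrays, as in 22.5% of all tested genes. CLDN4 rose by 0.91 ± 0.28 (limma adjusted p = 0.0222). Without the block this call was lost without the 12 h array of replicate 3 (0.108) or the 48 h array of replicate 2 (0.0987). With the block it held in 6 of 6 fits with 1 array left out, but not on the arrays compared alone (limma adjusted p = 0.0533). In control the difference was 0.38 ± 0.28 (limma adjusted p = 0.379), with replicate 1 lower at 48 h by 0.26 and replicate 3 higher by 1.15.

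CLDN2, the channel-forming claudin, had 8.33, 6.19 and 3.45 at 48 h with CsA, against 10.43, 10.08 and 7.40 at 12 h. In control it had 8.77, 8.84 and 6.04 at 48 h, against 10.23, 10.08 and 7.37 at 12 h. Every replicate was lower at 48 h under both treatments, with groups that overlapped through replicate 3. The difference was -3.32 ± 1.30 with CsA (limma adjusted p = 0.065) and -1.34 ± 1.30 in control (limma adjusted p = 0.513).

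With the block CLDN2 fell under both treatments, to 0.1 times the 12 h signal with CsA (-3.32 ± 0.36, limma adjusted p = 1.55e-05) and to 0.394 times in control (-1.34 ± 0.36, limma adjusted p = 0.0116). The CsA call held without replicate 3 (-3.0, limma adjusted p = 0.00209) and in 6 of 6 blocked fits with 1 array left out, where it ranged from -3.97, without the 48 h array of replicate 1, to -2.93, without that of replicate 3, or from 0.0639 to 0.131 times the 12 h signal. The control call was lost without the 12 h array of replicate 2 or the 48 h array of replicate 1 (limma adjusted p at most 0.0525) and without replicate 3 (0.0614). CLDN1 was lower at 48 h with CsA (-0.27 ± 0.14, adjusted p of limma 0.155, or 0.0299 with the block), a call that held in 1 of 6 blocked fits with 1 array left out, without CsA replicate 1 of 48 h. In control CLDN1 differed by 0.06 ± 0.14.

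In CsA cultures 3 of 7 junction genes rose between 12 and 48 h and 0 fell, where 32.5% of all tested genes changed, 16.3% up and 16.2% down. With the block 4 rose and 2 fell, where 48.7% of all tested genes changed. In control cultures 1 of 7 rose and 0 fell, where 17.9% of all tested genes changed and 8.48% rose, and with the block 2 rose and 1 fell, against 36.7%. Between 24 and 48 h 2 of 7 (OCLN and TJP1) rose with CsA, where 25.2% of all tested genes changed and 12.9% rose. In control 0 of 7 changed between 24 and 48 h, where 14.5% of all tested genes changed, 7.32% up and 7.16% down. With the block it was 5 of 7 with CsA, against 41.8%, and 3 of 7 in control, against 32.6%. Between 12 and 24 h 0 of 7 passed under either treatment in either fit, and of all tested genes 0% passed without the block and with it 0.131% with CsA (0.103% up) or 0% in control. Calls at 48 h against earlier times were thus common among all tested genes. The medians over the 7 genes were 0.47 with CsA and 0.38 in control, against -0.005 and -0.007 over all tested genes.

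Cell type markers moved between 12 and 48 h beside these genes. LUM, a matrix proteoglycan of fibroblasts, fell by 2.58 with CsA (limma adjusted p = 0.000368) and by 1.31 in control (limma adjusted p = 0.0381). With CsA the collagen gene COL1A1 fell by 0.86 (limma adjusted p = 0.0269) and GATM, a proximal tubule enzyme of creatine synthesis, fell as well (-1.64, limma adjusted p = 0.0498), and in control PTPRO, a phosphatase of podocytes, fell by 0.96 (limma adjusted p = 0.0488). With the block PTPRO (-0.64, limma adjusted p = 0.00485), SLC3A1 (-0.85, limma adjusted p = 0.0473) and PDZK1 (-0.78, limma adjusted p = 0.0488) fell with CsA too, where 24.4% of all tested genes fell. The summed fibroblast markers ranged from 9.20 to 11.28 at 48 h and from 11.34 to 11.40 at 12 h with CsA, and from 9.90 to 12.03 at 48 h and from 11.24 to 11.45 at 12 h in control.

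The summed proximal tubule markers ranged from 7.81 to 11.02 at 48 h and from 9.10 to 11.10 at 12 h with CsA, and from 9.17 to 11.76 at 48 h and from 9.27 to 11.23 at 12 h in control. The simple epithelium markers ranged from 14.02 to 14.72 at 48 h and from 13.48 to 14.48 at 12 h with CsA, and from 13.85 to 14.45 at 48 h and from 13.31 to 14.37 at 12 h in control. Among them 0 of 6 passed without the block, where 32.5% of all tested genes changed with CsA and 17.9% in control. With the block CDH1, EPCAM and KRT18 (0.52, limma adjusted p = 0.0384) rose with CsA, where 48.7% of all tested genes changed. In control CDH1 (0.95, limma adjusted p = 0.00102) and EPCAM (0.34, limma adjusted p = 0.0293) rose in that fit too, against 36.7%. The part of these markers in the junction values was not tested.

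**Figure D3:**
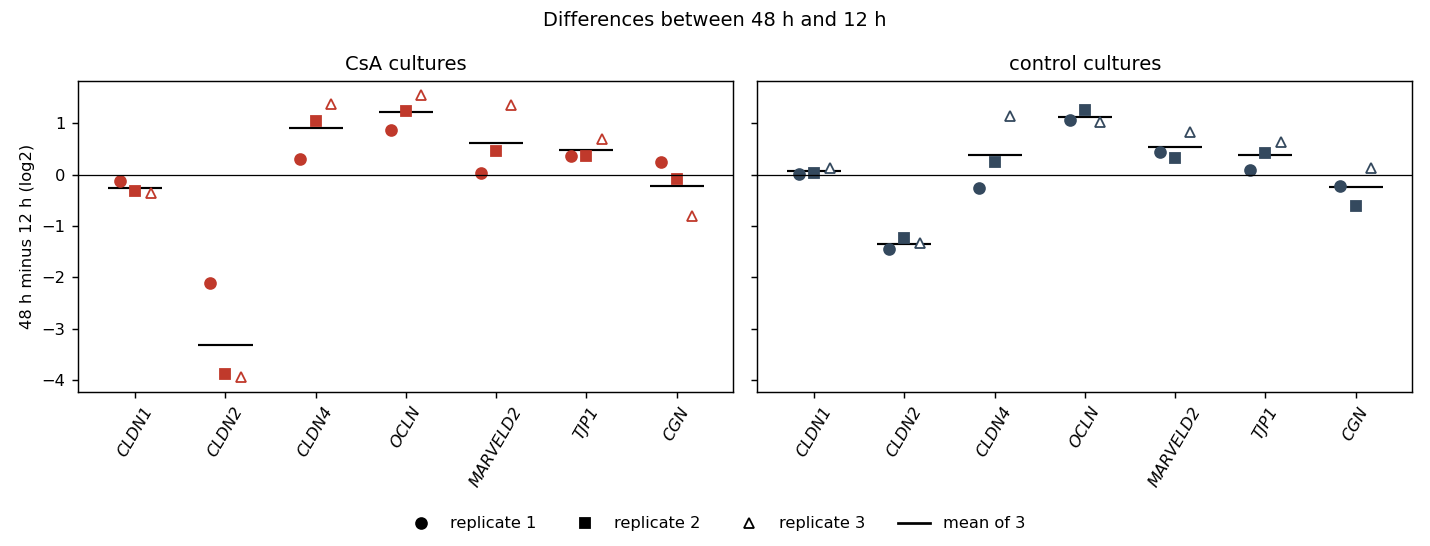
Difference between 48 h and 12 h (y axis, log2) for the 7 tested junction genes (x axis) in CsA cultures (left) and control cultures (right); symbols show the difference within each replicate number and horizontal bars the mean of 3. OCLN lies between 0.88 and 1.55 with CsA and between 1.02 and 1.26 in control, and CLDN2 lies between -3.95 and -2.10 with CsA and between -1.45 and -1.24 in control.

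Replicate 3 was set apart from replicates 1 and 2 for the same genes, as a description with no test, since it is a single replicate number. CLDN2 averaged 6.53 over the 6 replicate 3 arrays and 9.37 over the other 12, a difference of -2.84, and was lower in replicate 3 in 6 of 6 groups. CGN averaged 3.08 in replicate 3 and 5.22 in the others, a difference of -2.15. Its 6 replicate 3 arrays, 2.68 to 3.71, all lay below the other 12, 4.43 to 6.01, as in 4.9% of all tested genes.

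OCLN averaged 8.92 in replicate 3 and 9.66 in the others and was the third gene that was lower there in 6 of 6 groups, as 14.8% of all tested genes were. MARVELD2 averaged 7.02 in replicate 3 and 7.86 in the others, but at 48 h with CsA its replicate 3 array differed from the mean of the others by only -0.06. CLDN4 and TJP1 were lower in replicate 3 by 0.36 and 0.24, each in 4 of 6 groups. CLDN1 went the other way and was higher in replicate 3 by 0.22, above both other replicates in 5 of 6 groups. The second TJP1 probe set (214168_s_at) was not lower there either, with a mean of 7.38 in replicate 3 and 7.28 in the others.

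The size of the difference in CLDN2 exceeded that of 99.3% of all tested genes, and that of CGN 98.5%. Of all tested genes 52.1% were lower in replicate 3. Of the 6 simple epithelium markers 6 were lower there, as were 3 of 3 tested proximal tubule markers. Tested markers of other cell types were mostly lower there too: 3 of 4 fibroblast, 3 of 3 podocyte, 1 of 1 endothelial and 1 of 1 distal nephron. Lower there as well were 7 of 8 other junction membrane proteins and 16 of 21 plaque and polarity genes. Of the other claudins 3 of 7 were lower there, of the adherens junction genes 6 of 12 and of the epithelial regulators 4 of 6. CDH1, the adhesion protein E-cadherin, averaged 3.80 in replicate 3 and 8.19 in the others. ESRP1, a splicing regulator of epithelial cells, averaged 4.32 in replicate 3 and 6.78 in the others, EPCAM 11.49 and 12.96, and CGNL1, the cingulin-like plaque protein, 6.10 and 8.25. The proximal tubule scaffold PDZK1 averaged 6.79 in replicate 3 and 10.34 in the others. ZEB1, a repressor of epithelial genes, averaged 8.35 in replicate 3 and 7.11 in the others, and CLDN11 averaged 11.79 in replicate 3 and 10.83 in the others, while SNAI2, GRHL2 and OVOL2 were under 4 on all arrays. The part of these genes in the junction values was not tested.

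**Figure D4:**
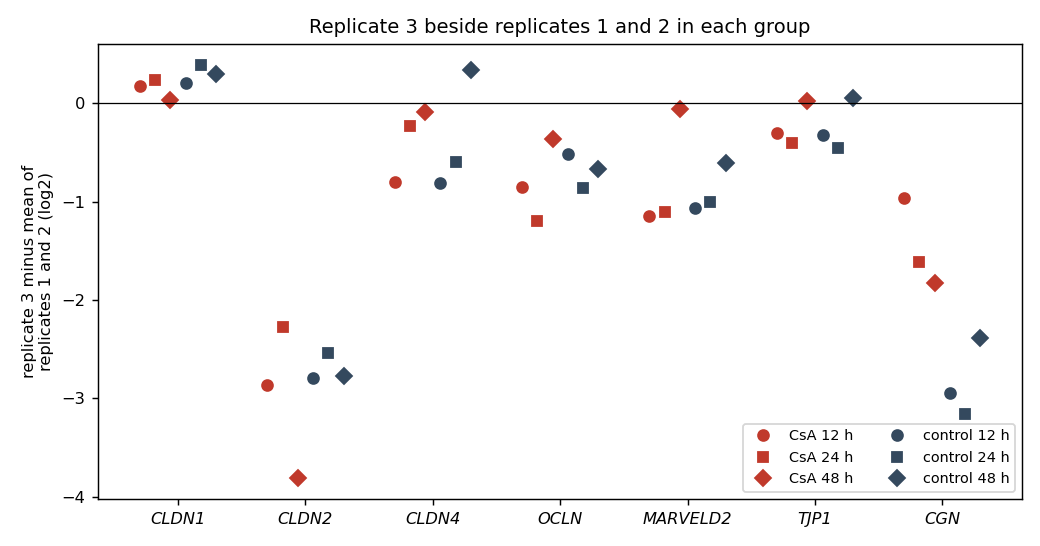
Replicate 3 minus the mean of replicates 1 and 2 in each group (y axis, log2) for the 7 tested junction genes (x axis); colour shows the treatment and symbol shape the time. CLDN2 lies between -3.81 and -2.27, CGN between -3.16 and -0.96 and CLDN1 between 0.03 and 0.39.

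The other genes of the junction were taken from lists by role. Their counts between CsA and control at 48 h with the block stand beside 10.8% of all tested genes called in that fit, 4.8% up and 5.96% down, and their medians beside 0.001. Calls between 12 and 48 h stand beside 32.5% of all tested genes with CsA and 17.9% in control. With the block those shares were 48.7% and 36.7%. Of 20 other claudins, 18 had a probe set and 7 were tested (CLDN3, CLDN11, CLDN12, CLDN15, CLDN16, CLDN19 and CLDND1). At 48 h 0 of 7 passed between CsA and control in either fit, with a median of 0.03. Between 12 and 48 h with CsA, CLDN11, which forms the barrier of myelin and Sertoli cells, fell by 1.34 ± 0.46 (limma adjusted p = 0.0371). With the block CLDN3, a sealing claudin (0.77, limma adjusted p = 0.00368), and CLDN16, needed for magnesium reabsorption in the thick ascending limb (0.89, limma adjusted p = 0.00889), rose too.

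In control the calls between 12 and 48 h came with the block alone, where 36.7% of all tested genes changed. CLDN11 (-0.88, limma adjusted p = 0.00344) and CLDN12 (-0.38, limma adjusted p = 0.0212) fell there. CLDN3 (1.00, limma adjusted p = 0.00119) and CLDN16 (0.77, limma adjusted p = 0.0252) rose.

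Of 12 other junction membrane proteins 8 were tested, and without the block 0 of 8 passed at 48 h. With the block 1 fell, CXADR, an adhesion molecule that is also a virus receptor (-0.36 ± 0.09, limma adjusted p = 0.0238). Of 29 plaque and polarity genes 21 were tested, of which 0 passed without the block and 2 fell with it, a share near that of all tested genes, with a median of -0.13. CGNL1 differed by -1.19 ± 0.33 (limma adjusted p = 0.0408 with the block), with 5.83 ± 1.94 with CsA and 7.02 ± 0.94 in control (SD, n = 3). PRKCI, the atypical protein kinase C of the polarity complex, differed by -0.41 ± 0.11 (limma adjusted p = 0.0287 with the block).

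Between 12 and 48 h with CsA, CRB3, a polarity protein of the apical membrane, rose by 0.59 (limma adjusted p = 0.0459). With the block CXADR (0.39, limma adjusted p = 0.00199) and EPCAM (0.37, limma adjusted p = 0.014) rose too, and in control CXADR (0.56, limma adjusted p = 0.000404), EPCAM (0.34, limma adjusted p = 0.0293), ESAM, an endothelial adhesion molecule (0.72, limma adjusted p = 0.038), and CRB3 (0.54, limma adjusted p = 0.0402) rose with the block. ILDR2, a relative of the proteins that recruit tricellulin, fell between 24 and 48 h with CsA in that fit (-0.85, limma adjusted p = 0.0435).

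Between 12 and 48 h PRKCZ, the other atypical kinase, rose in both treatments, by 1.16 ± 0.19 with CsA (limma adjusted p = 0.000466) and by 0.89 ± 0.19 in control (limma adjusted p = 0.00706). WNK1, a kinase that regulates salt transport, rose by 0.47 with CsA (limma adjusted p = 0.00594) and by 0.50 in control (limma adjusted p = 0.00942). With CsA PRKCI fell by 0.55 (limma adjusted p = 0.00755) and PALS1, a polarity scaffold, by 0.36 (limma adjusted p = 0.0361). With the block MYLK, the myosin light chain kinase, fell by 0.94 with CsA (limma adjusted p = 1.59e-05) and by 0.79 in control (limma adjusted p = 0.000146). In the same fit CGNL1 fell by 2.11 with CsA (limma adjusted p = 0.000217) and also fell in control (-1.13, limma adjusted p = 0.0181). TJP3, the scaffold ZO-3, rose there by 1.00 with CsA (limma adjusted p = 0.0199) and by 1.59 in control (limma adjusted p = 0.00222).

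Of the 6 tested regulators of the epithelial state 0 passed at 48 h between CsA and control. From 12 to 48 h KLF5, a transcription factor of epithelia, rose in control by 0.84 (limma adjusted p = 0.0281), and in the blocked fit it also rose with CsA (0.65, limma adjusted p = 0.0215). With the block ESRP1 rose by 2.71 with CsA (limma adjusted p = 3.06e-05) and by 2.12 in control (limma adjusted p = 0.000417), and TWIST1, a mesenchymal transcription factor, fell by 0.54 with CsA (limma adjusted p = 0.0392).

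In the neighbouring adherens junction 12 of 14 genes were tested, of which 0 passed at 48 h without the block. With the block 1 rose and 4 fell, where 4.8% of all tested genes rose and 5.96% fell. The median difference of the 12 was -0.25. CDH1 rose by 0.86 ± 0.17 (limma adjusted p = 0.0126 with the block, and 0.905 without it), with 7.89 ± 2.27 with CsA and 7.03 ± 2.75 in control. VCL, which links junctions to actin, fell by 0.62 with the block (limma adjusted p = 0.0129), and the cadherins CDH6 (-1.23, limma adjusted p = 0.0309), CDH16 (-1.05, limma adjusted p = 0.0332) and CDH2 (-0.40, limma adjusted p = 0.0327) fell as well in that fit. CDH16 and CDH6 are cadherins of renal tubules. From 12 to 48 h VCL fell by 1.85 with CsA (limma adjusted p = 1.48e-05) and by 1.25 in control (limma adjusted p = 0.000431), and CDH6 by 2.44 with CsA (limma adjusted p = 0.000351). CTNNA1, alpha-catenin, rose by 0.53 with CsA (limma adjusted p = 0.0156), and NECTIN2, an adhesion molecule, fell by 0.70 (limma adjusted p = 0.0194). With the block CDH1 rose by 1.53 with CsA (limma adjusted p = 1.66e-05) and by 0.95 in control (limma adjusted p = 0.00102). CDH6 fell in control too in that fit (-1.06, limma adjusted p = 0.0194).

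Of the proximal tubule markers, 2 of 3 tested fell beside CLDN2 at 48 h in the blocked fit, in which 5.96% of all tested genes fell. With the block PDZK1 fell by 1.22 (limma adjusted p = 0.0275) and SLC3A1, an amino acid transporter subunit, by 1.37 (limma adjusted p = 0.0242), and 0 of 3 tested markers passed without it. The summed level of the 15 markers with a probe set ranged from 7.81 to 11.02 on the log2 scale with CsA and from 9.17 to 11.76 in control. Their part in the CLDN2 values was not tested. The summed simple epithelium markers ranged from 14.02 to 14.72 with CsA and from 13.85 to 14.45 in control, and the fibroblast markers from 9.20 to 11.28 with CsA and from 9.90 to 12.03 in control.

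**Figure D5:**
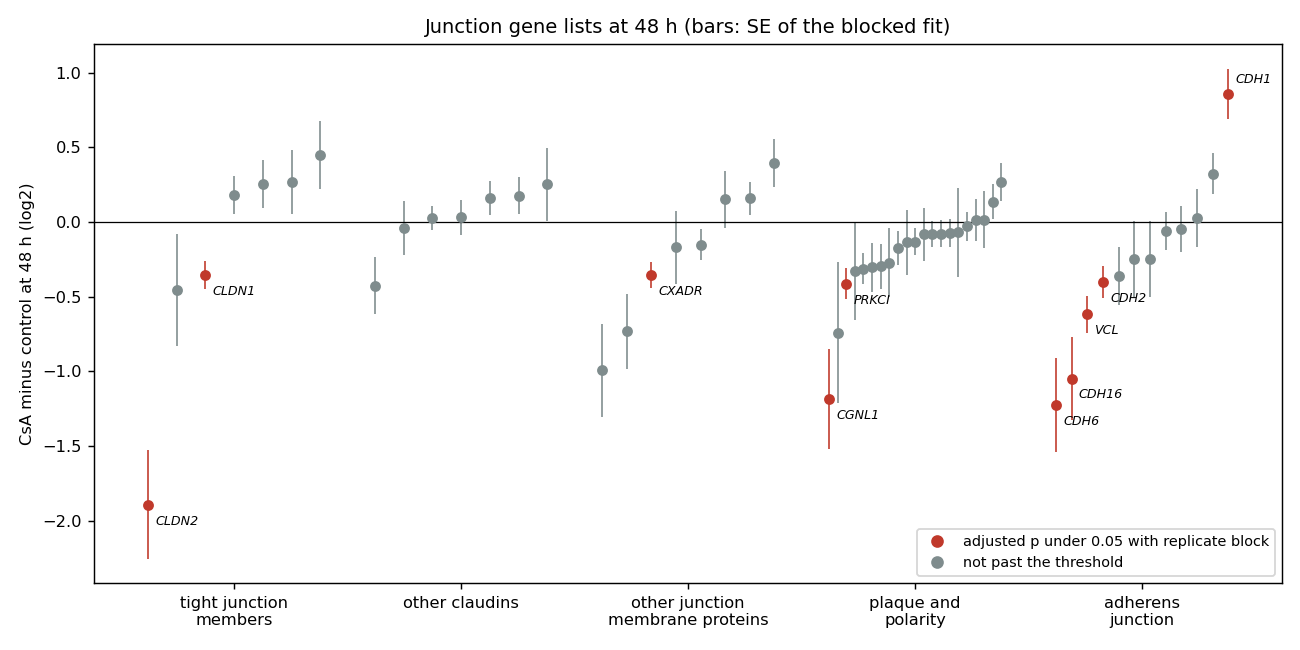
Difference between CsA and control at 48 h (y axis, log2) for the tested genes of 5 junction lists (x axis), ordered by size within a list; bars show the SE of the fit with the replicate block, and red points passed the threshold in that fit. CLDN2, at -1.89, lies lowest of all points, and CDH1, at 0.86, lies highest.

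Finally the patterns were compared over the 18 arrays, which share treatments, times and replicate numbers. OCLN and TJP1 correlated at 0.93, OCLN and MARVELD2 at 0.893, and CLDN2 and OCLN at -0.151 (Pearson's r, n = 18). After the mean of each replicate number had been subtracted, OCLN and TJP1 correlated at 0.921, OCLN and MARVELD2 at 0.881, and CLDN2 and OCLN at -0.91. CLDN2 and CGN correlated at 0.765, and at 0.346 after the subtraction.

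Across all tested genes the patterns most like CLDN2 were those of GFRA1 (r = 0.989), a receptor subunit for glial cell line-derived neurotrophic factor, CGNL1 (0.976) and GRAMD2B (0.975). After the subtraction they were GFRA1 (0.988), MCM3 (0.985), a DNA replication helicase subunit, and SGK1 (0.979), a kinase that regulates ion transport. For OCLN they were CCNB1IP1 (0.976), HEIH (0.976) and DPH5 (0.974), and after the subtraction ZFAS1 (0.984), CTSH (0.979) and SEL1L (0.978). For TJP1 they were TMEM263 (0.963), WDR81 (0.956) and GPX4 (0.955), and then SH3TC1 (0.973), MAP1LC3B (0.97) and OSBP (0.97). For MARVELD2 they were TMEM106B (0.956), IDNK (0.95) and CFAP263 (0.948), and then LOC105376805 (0.952), STEAP2 (0.944) and U2AF1L4 (0.935).

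For CLDN4 they were ERP29 (0.961), a chaperone of the endoplasmic reticulum, KIAA0319L (0.939) and CBY1 (0.936), and then ERP29 (0.96), STK16 (0.942) and PRAF2 (0.934). For CLDN1 they were FGD6 (0.888), LAMC1 (0.877), a laminin chain, and ENTPD1-AS1 (0.866), and then PLLP (0.905), P3H2 (0.898) and BIVM (0.893). For CGN they were FGFR2 (0.937), a fibroblast growth factor receptor, BICD1 (0.936) and KANK2 (0.932), and then MC1R (0.702), NAT8L (0.699) and TWIST1 (0.697).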

How the data were processed

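The authors' deposited table gives 1 value per array for 54675 probe sets. The submitters' processing notes name GCRMA, without a version, and the deposited values were read as log2 values from their range of 0.84 to 15.98. The sources used here do not say whether all arrays were normalized in 1 run. Low signals can be compressed by GCRMA, so differences between low values may be understated, which was not tested. For arrays, their number limits the precision.

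The platform annotation named the probe sets (41091 with 1 symbol, 1801 with several), and 62 array controls were left out. The brightest probe set of each gene was used, with a highest group mean of at least 4. With 1 term per group over 18 arrays, lmFit and eBayes of limma 3.58.1 (R 4.3.3) gave differences, standard errors and Benjamini-Hochberg adjusted p over 10717 genes. The script was tested on simulated data that held no shared difference between replicate numbers. Errors of group means are SDs.

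The groups share replicate numbers. For same-numbered arrays, deviations from their group means had a correlation of at least 0.277 in every pair of groups, and 0.546 to 0.942 for CsA with control at one time. This pairing therefore comes from the values; the labels do not state it.

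The genes and all lists were chosen with earlier results of these data known. Named were all 9 genes, listed junction, regulator and marker genes that passed in a contrast (beyond 4 for a list and contrast, the 4 with the smallest p), CDH1, CDH2, the simple epithelium markers, GRHL2, OVOL2, ESRP1, SNAI2 and ZEB1, and the 3 genes most like each tested gene. Tables and figures used Python 3.11.15, pandas 2.3.3 and matplotlib 3.10.9. Promoter windows are RefSeq's, of GRCh38.p14.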

Additional observations from a re-analysis of the deposited data

How the results depend on the processing

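The counts of junction genes called depended on the replicate block and on single arrays. With the replicate block 2 passed at 48 h with CsA against control, against 0 without it, and the block changed 0 counts at 12 or 24 h. Between 24 and 48 h with CsA, 2 passed, 5 with the replicate block, 0 on the arrays compared alone, 0 without replicate 1, 0 without replicate 2, 0 with no level filter, 1 after quantile normalization, and 0 to 2 with single arrays left out. Between 12 and 48 h with CsA, 3 passed, 6 with the block, 1 on the arrays compared alone, 0 without replicate 1, 0 without replicate 2, and 0 to 3 with single arrays left out. In control cultures 0 passed between 24 and 48 h, 3 with the block, 2 with a block on only the compared arrays, 1 without replicate 3 with or without the block, and 1 with the mean of probe sets. Between 12 and 48 h 1 passed in control, 3 with the block, 2 with a block on only the compared arrays, 0 on those arrays without it, 0 without replicate 1, 0 without replicate 2, 0 with no level filter, 0 with the mean of probe sets, and 0 to 1 with single arrays left out. With the block the share of all tested genes called also rose, from 0.439% to 10.8% at 48 h between CsA and control. Between 12 and 48 h it rose from 32.5% to 48.7% with CsA and from 17.9% to 36.7% in control. For the other settings that share is not given, so these counts do not show whether junction genes depended on them more than other genes. The block on the arrays compared alone, and the blocked fits with single arrays left out, were chosen after the data were seen. The causes were not tested.

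Some differences between CsA and control that had not passed changed sign. With the mean of probe sets at 12 h CLDN1 was 0.01 and OCLN -0.03. At 24 h CLDN4 was -0.05 without replicate 3, with or without the block, and CGN was 0.06 without replicate 2. With single arrays left out at 12 h the ranges were -0.08 to 0.04 for CLDN1, -0.85 to 1.03 for CLDN2, -0.36 to 0.18 for CLDN4, -0.02 to 0.43 for OCLN, -0.17 to 0.58 for MARVELD2, -0.01 to 0.20 for TJP1 and -1.45 to 0.02 for CGN. At 24 h they were -0.01 to 0.21 for CLDN1, -1.27 to 0.33 for CLDN2, -0.13 to 0.22 for CLDN4, -0.12 to 0.57 for OCLN, -0.23 to 0.48 for MARVELD2, -0.01 to 0.28 for TJP1 and -1.48 to 0.19 for CGN. At 48 h CGN ranged from -1.25 to 0.16 and CLDN2 from -3.06 to -0.62, and in the blocked fit without CsA replicate 3 MARVELD2 was -0.04.

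Values near 4, as for CGN and for CLDN2 in replicate 3 at 48 h with CsA, limit how large a difference can be resolved. With 3 arrays in a group and replicate 3 apart, a difference that did not pass is not shown to be absent.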
